A study of Homo sapiens with 12 samples.

Results

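The 10 genes described here encode the mTOR kinase (MTOR), the subunits of its complexes RPTOR, RICTOR and MLST8, its inhibitors AKT1S1 and DEPTOR, the TSC1 and TSC2 subunits of the upstream TSC complex, and the substrates RPS6KB1 and EIF4EBP1. They were taken by name from the 63677 Ensembl identifiers of the count tables through their symbols in GENCODE v44, and each matched 1 identifier. RPTOR was listed because its level was already known to be strongly lower in epigenetically primed cells. Its values with priming are therefore given as a description with no test, and the tests of priming cover the other 9 genes. All 10 genes were among the 17123 that passed the filter on low counts.

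The mTOR kinase integrates nutrient and growth factor signals and works in 2 complexes that share MTOR and MLST8. RPTOR is the scaffold that brings substrates to mTOR complex 1 (mTORC1), which drives protein synthesis and restrains autophagy, whereas RICTOR defines mTOR complex 2 (mTORC2), which phosphorylates AKT and SGK kinases. The TSC complex inactivates the GTPase RHEB, which switches mTORC1 on at the lysosome. Signaling through PI3K, AKT and mTOR is one of the routes by which cells of pancreatic ductal adenocarcinoma (PDAC) grow.

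RNA-seq had been carried out on MiaPaca2, an established human PDAC cell line, labelled as wild type in all 12 libraries. Con cells received the vehicle DMSO and CPT cells received 1 µM calcipotriol (CPT), a Vitamin D analogue. GTA+5-Aza cells received 2 mM glyceryl triacetate (GTA), an acetate precursor that raises acetyl-CoA, with 1 µM 5-Aza-2′-deoxycytidine (5-Aza), an inhibitor of DNA methyltransferases, and CPT+GTA+5-Aza cells received all 3 agents at these doses. Every treatment lasted 24 h and each group held 3 libraries, so that the primed cells (with GTA and 5-Aza) were compared with the unprimed cells once without CPT and once with it. GTA and 5-Aza were always given together here, and their effects cannot be told apart. The methods call the samples of an experiment independent, and the labels do not say how the 3 libraries of a group were separated, so p-values measure the spread between these libraries, which may be technical in part. A single cell line was used. Total counts ran from 16162490 to 21224665 per library. Levels are given in CPM on TMM-scaled library sizes, so that libraries of unequal depth can be compared, and a count of 0 in a library would allow up to 0.184 CPM at the smallest depth (3 counts, counting error only). KRT8, KRT18, VIM and SOX9, markers of such a carcinoma line, were expressed in every library (lowest values 1409, 643.7, 5308 and 149 CPM), while EPCAM and CDH1 had at most 1 and 4 counts. Of the markers of other cell types, the acinar and islet markers PRSS1, CPA1, INS and GCG and the endothelial PECAM1 and CDH5 had 0 counts, the endothelial VWF had at most 11, and the leukocyte markers CD3E, PTPRC, CD68 and LYZ had at most 10. Of 5 fibroblast markers, COL1A2 reached 689 to 943 CPM, while LUM, DCN, PDGFRB and COL1A1 had at most 44 counts. Their part in the results was not tested.

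Promoter sequences were matched for 6 of the 10 genes in the RefSeq table of GRCh38.p14, with 250 bases before and 50 after each start. Of these, the promoters of RPTOR, MTOR and TSC2 are shown, because 5-Aza acts on methylation of the cytosine in CG pairs. The counts of these genes also differed between primed and unprimed cells in both comparisons. EIF4EBP1 differed in both as well, with higher counts in primed cells, but its promoter was not among those matched. The promoters shown are therefore all of genes with lower counts in primed cells. Sequences read 5′ to 3′ on the strand of the gene, and capitals mark each CG. RPTOR is at chr17:80544588-80544887 (plus strand), MTOR at chr1:11262502-11262801 (minus strand) and TSC2, of which the first of 2 listed starts is given, at chr16:2047735-2048034 (plus strand).
RPTOR: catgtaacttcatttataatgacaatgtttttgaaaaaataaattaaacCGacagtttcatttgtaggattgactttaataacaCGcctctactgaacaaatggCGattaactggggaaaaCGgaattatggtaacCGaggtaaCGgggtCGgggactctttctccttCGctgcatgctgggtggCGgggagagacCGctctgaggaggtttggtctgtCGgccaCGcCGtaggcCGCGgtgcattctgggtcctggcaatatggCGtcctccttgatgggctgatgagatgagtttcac
MTOR: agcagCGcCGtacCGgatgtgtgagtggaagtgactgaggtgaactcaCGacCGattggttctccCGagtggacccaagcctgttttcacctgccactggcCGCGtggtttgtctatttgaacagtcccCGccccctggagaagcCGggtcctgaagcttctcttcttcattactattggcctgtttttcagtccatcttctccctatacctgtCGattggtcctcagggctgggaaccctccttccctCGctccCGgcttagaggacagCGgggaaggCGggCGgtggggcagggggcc
TSC2: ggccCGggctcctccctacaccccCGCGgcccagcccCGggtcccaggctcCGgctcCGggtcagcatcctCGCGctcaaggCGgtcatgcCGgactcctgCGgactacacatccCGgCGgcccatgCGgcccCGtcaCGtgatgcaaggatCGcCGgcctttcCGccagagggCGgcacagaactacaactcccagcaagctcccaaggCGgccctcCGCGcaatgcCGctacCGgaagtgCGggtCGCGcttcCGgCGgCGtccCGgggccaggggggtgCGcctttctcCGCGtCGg
The RPTOR window held 16 CG pairs at a GC content of 48.0%, and the MTOR window also held 16 at 59.3%. The TSC2 window held 36 CG pairs at 73.0%. CG pairs, which read the same on both strands, were found in 96% of the 35116 promoters of the table, with a median of 14 per window. At least 16 CG pairs were present in 47.5% of all promoters, and at least 36 in 12.7%. Among the other matched genes, RICTOR had 42 CG pairs, TSC1 had 25 and RPS6KB1 had 21. MLST8, AKT1S1, DEPTOR and EIF4EBP1 were not matched here, and whether the full table lists them was not established. Methylation was not measured in these libraries, so the letters say nothing of the state of these promoters.

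RPTOR was at 74.1, 80.8 and 74.0 CPM in Con and at 66.8, 85.5 and 73.4 CPM in CPT. In the primed cells it was at 26.9, 27.5 and 30.4 CPM without CPT and at 31.4, 30.5 and 28.5 CPM with CPT. The 6 primed libraries all lay below the 6 unprimed ones, with a gap from 31.4 to 66.8 CPM. In GTA+5-Aza the level was 0.370 times that in Con (log2 fold change -1.43), which ranked RPTOR at 108 from the lowest of all 17123 tested genes. In CPT+GTA+5-Aza it was 0.401 times that in CPT (log2 fold change -1.32), at rank 140. These values chose the gene and support nothing further. The counts behind them were 466 to 594 per primed library and 1214 to 1739 per unprimed library. In bulk RNA, less RPTOR RNA per cell and fewer cells with RPTOR RNA cannot be told apart.

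**Figure D1:**
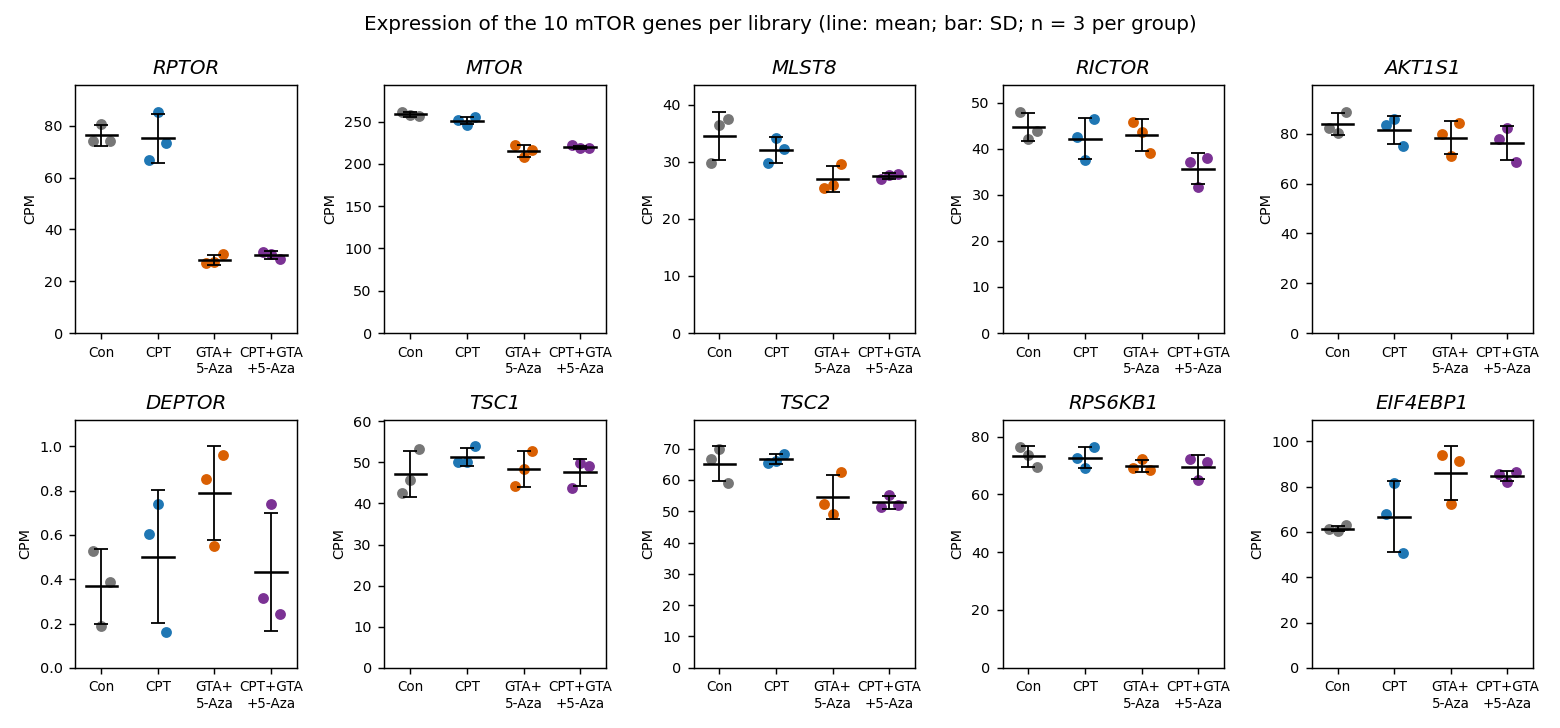
Level of each of the 10 genes in CPM (y axis, from 0) in the 4 treatment groups (x axis). Points are libraries, lines are group means and bars are the SD of 3 libraries. RPTOR lies between 26.9 and 31.4 CPM in the 6 primed libraries and between 66.8 and 85.5 CPM in the 6 unprimed ones, and no other gene shows a gap of this size.

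The other 9 genes differed by less. In GTA+5-Aza against Con, 4 of the 9 passed the quasi-likelihood test of edgeR, at a Benjamini-Hochberg adjusted p below 0.05 over the whole table, where 17.5% of all tested genes passed. MTOR, MLST8 and TSC2 were lower (3 of 9, against 7.53% of all genes called lower) and EIF4EBP1 was higher (1 of 9, against 9.95% called higher). In CPT+GTA+5-Aza against CPT, 3 of the 9 passed, where 17% of all genes did, namely MTOR and TSC2 in the lower direction (7.39% of all genes) and EIF4EBP1 in the higher direction (9.57%). None of the 9 passed the study's rule of a fold change above 1.5 with an unadjusted P under 0.05, which 8.44% and 8.67% of all genes passed. The median log2 fold change of the 9 genes was -0.06 without CPT and -0.19 with CPT, beside 0.0069 and 0.0055 over all tested genes. Without CPT, 2 of the 9 genes (EIF4EBP1 and DEPTOR) were higher in every primed library than in every unprimed one and 2 (MTOR and MLST8) were lower, beside 18.1% and 16% of all genes. With CPT, 1 was higher (EIF4EBP1) and 4 were lower (MTOR, MLST8, TSC1 and TSC2), beside 16.4% and 14.4% of all genes. The 2 comparisons share no library, but both come from 1 fit of all 12 libraries with a shared estimate of the spread, and are not independent. The count of calls without CPT was 2 when Con replicate 2, GTA+5-Aza replicate 1 or GTA+5-Aza replicate 2 was left out, and the count with CPT was 1 without CPT+GTA+5-Aza replicate 2 or replicate 3.

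**Figure D2:**
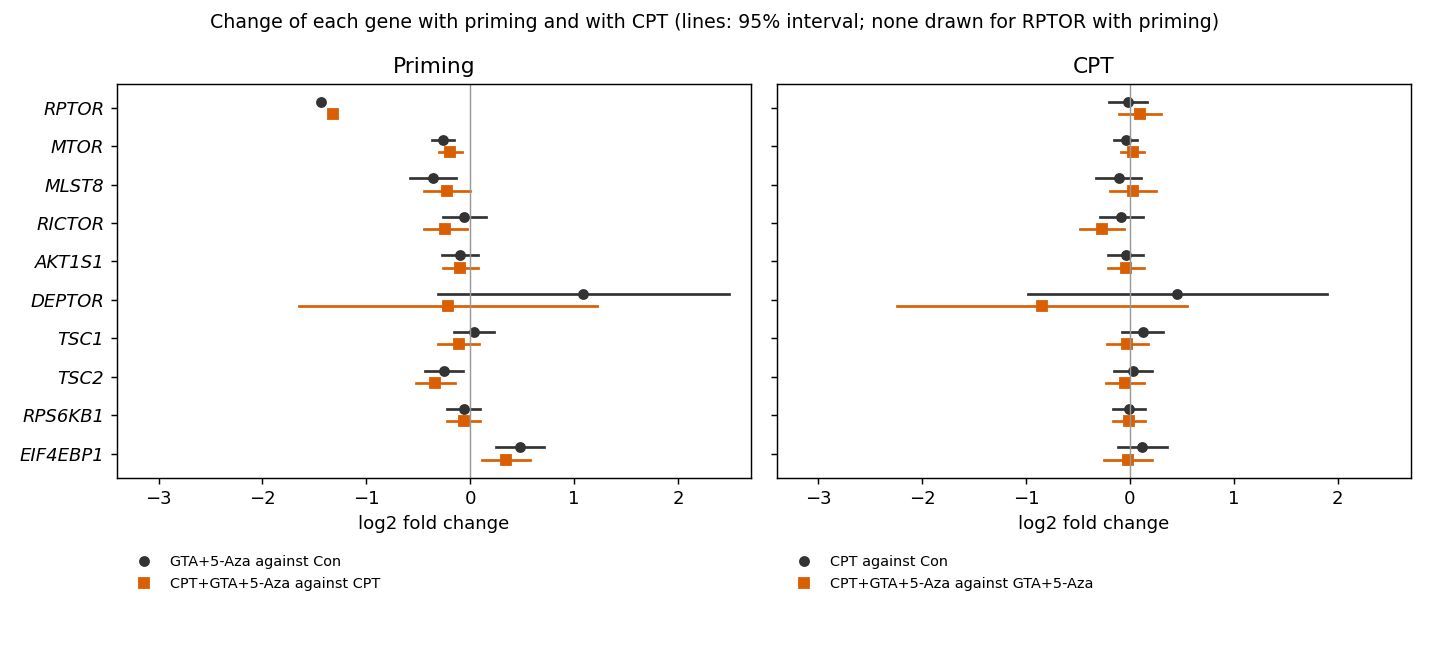
Log2 fold change (x axis) of each gene (y axis) with priming (left) and with CPT (right). Points are the estimates and lines their 95% intervals from edgeR, and no interval is drawn for RPTOR with priming, where it was chosen. Apart from RPTOR, the intervals of MTOR, MLST8, TSC2 and EIF4EBP1 lie on 1 side of 0 in both priming comparisons and that of RICTOR in 1 of them, and in the CPT panel that of RICTOR in primed cells alone does.

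MTOR, the catalytic subunit of both complexes, was at 262, 258 and 256 CPM in Con and at 222, 208 and 216 CPM in GTA+5-Aza. In CPT it was at 252, 246 and 255 CPM and in CPT+GTA+5-Aza at 222, 218 and 219 CPM. As for RPTOR, all 6 primed libraries lay below all 6 unprimed ones, with the highest primed value at 222 CPM and the lowest unprimed value at 246 CPM. MTOR fell by 16.7% without CPT (log2 fold change -0.26, SE 0.05, edgeR adjusted p = 0.000945) and by 12.5% with CPT (-0.19, SE 0.05, edgeR adjusted p = 0.0128). The call without CPT was kept in all 19 alternative settings of scaling, filter, tool or libraries, and that with CPT was lost without CPT+GTA+5-Aza replicate 2 or 3 (edgeR adjusted p = 0.0549 and 0.0529). The gene (ENSG00000198793) lies at chr1:11106535-11262556 on the minus strand (GRCh38, as for all positions of genes given here) and spans 156 kb.

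MLST8 (ENSG00000167965, chr16:2204248-2209453, plus strand), the small WD40 subunit that stabilises the kinase domain, showed the same order with narrower gaps. It was at 29.8, 36.5 and 37.5 CPM in Con against 25.5, 25.9 and 29.6 CPM in GTA+5-Aza, and it fell by 22.1% (log2 fold change -0.36, SE 0.11, edgeR adjusted p = 0.0197). With CPT the values were 29.7, 34.1 and 32.3 CPM in CPT and 26.9, 27.6 and 27.9 CPM in CPT+GTA+5-Aza, and the difference of -0.22 (SE 0.11, edgeR adjusted p = 0.170) did not pass. The call without CPT was lost when Con replicate 2 or 3, or GTA+5-Aza replicate 1 or 2, was left out (edgeR adjusted p from 0.0675 to 0.111). The 6 primed libraries again lay below the 6 unprimed ones, although the closest values were 29.6 and 29.7 CPM. Over all tested genes, 6.81% were lower in every primed than in every unprimed library, and 3 of the 10 genes were so ordered, RPTOR among them by choice.

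RICTOR (ENSG00000164327, chr5:38937920-39074402, minus strand), the defining subunit of mTORC2, was at 48.1, 42.1 and 43.8 CPM in Con and at 45.9, 43.7 and 39.1 CPM in GTA+5-Aza, so that these groups overlapped. The log2 fold change was -0.06, with a 95% interval from -0.26 to 0.15. In CPT it was at 42.5, 37.6 and 46.4 CPM and in CPT+GTA+5-Aza at 37.1, 31.8 and 38.0 CPM, where the log2 fold change of -0.24 (interval -0.45 to -0.03, edgeR adjusted p = 0.107) did not pass. Without CPT replicate 2, the lowest of its group, that value was -0.32 with an edgeR adjusted p of 0.0240.

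The ratio of RPTOR to RICTOR sets the defining subunits of the 2 complexes side by side. Per kb of exon, the median RPTOR to RICTOR ratio was 2.21 in Con (range 2.01 to 2.50) and 2.07 in CPT (2.05 to 2.97). It was 0.822 in GTA+5-Aza (0.765 to 1.01) and 1.10 in CPT+GTA+5-Aza (0.980 to 1.25). The RNA of RPTOR thus exceeded that of RICTOR per length in all 6 unprimed libraries, and in the primed libraries the values lay on both sides of 1. With the length of the canonical transcript in place of all exons, the medians were 2.36, 2.204, 0.878 and 1.18. The RPTOR to MTOR ratio per kb of exon was 0.375 and 0.373 in Con and CPT and 0.172 and 0.182 in the primed groups, again as medians. These ratios carry the RPTOR values that chose the gene and are given as a description.

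Neither of the direct inhibitors passed the test. AKT1S1 (ENSG00000204673, chr19:49869033-49878459, minus strand), also known as PRAS40, binds RPTOR and holds mTORC1 back. It was at 82.5, 80.5 and 89.0 CPM in Con and at 80.1, 71.2 and 84.2 CPM in GTA+5-Aza, with 75.3 to 85.8 CPM in CPT and 68.8 to 82.3 CPM in CPT+GTA+5-Aza. All 4 groups overlapped, and the log2 fold changes with priming were -0.10 without CPT (interval -0.27 to 0.07) and -0.10 with CPT (-0.27 to 0.08). DEPTOR (ENSG00000155792, chr8:119873717-120050918, plus strand), an inhibitor found on both complexes, was close to the limit of detection, with 3 to 17 counts per library. Its levels were 0.526, 0.191 and 0.389 CPM in Con, 0.605, 0.738 and 0.164 CPM in CPT, 0.855, 0.551 and 0.960 CPM in GTA+5-Aza, and 0.317, 0.738 and 0.245 CPM in CPT+GTA+5-Aza. The GTA+5-Aza libraries lay just above the Con libraries, but the log2 fold change of 1.09 had an interval from -0.31 to 2.49, and with CPT it was -0.22 (-1.65 to 1.22). These intervals are wide at this depth, and changes of DEPTOR within them could have been missed.

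TSC2 (ENSG00000103197, chr16:2047967-2089491, plus strand), the GTPase-activating subunit of the TSC complex, was lower in primed cells, and TSC1 (ENSG00000165699, chr9:132891348-132946874, minus strand), its stabilising partner, did not pass the test. TSC2 was at 66.6, 69.9 and 58.9 CPM in Con and at 52.1, 49.2 and 62.5 CPM in GTA+5-Aza, where the highest primed value exceeded the lowest Con value. With CPT the groups were apart, at 65.5, 65.96 and 68.4 CPM in CPT and 51.3, 55.2 and 51.9 CPM in CPT+GTA+5-Aza. TSC2 fell by 20.7% with CPT (log2 fold change -0.33, SE 0.09, edgeR adjusted p = 0.0100) and by 16.2% without CPT (-0.26, SE 0.09, edgeR adjusted p = 0.0478). The call without CPT lay at the threshold and was kept in 9 of the 19 alternative settings. Among the settings where it was lost were library-size scaling (edgeR adjusted p = 0.101) and the fits without Con replicate 1 or 2, GTA+5-Aza replicate 1 or 2, CPT replicate 1 or any library of CPT+GTA+5-Aza (edgeR adjusted p from 0.0526 to 0.217). The call with CPT was kept in all 19. TSC1 was at 42.6, 45.7 and 53.3 CPM in Con, 44.1, 48.4 and 52.8 CPM in GTA+5-Aza, 50.04, 50.1 and 53.9 CPM in CPT and 43.7, 49.8 and 49.2 CPM in CPT+GTA+5-Aza. The TSC1 groups overlapped without CPT and lay just apart with CPT, and the log2 fold changes were 0.04 (interval -0.16 to 0.23) and -0.11 (-0.31 to 0.08). The TSC2 to TSC1 ratio per kb of exon had medians of 1.31 in Con, 1.123 in CPT, 1.01 in GTA+5-Aza and 0.951 in CPT+GTA+5-Aza, and the ranges of Con (0.948 to 1.34) and GTA+5-Aza (0.872 to 1.01) overlapped. On the canonical transcripts the medians were 2.05, 1.756, 1.58 and 1.49.

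Of the substrates of mTORC1, EIF4EBP1 was higher in primed cells and RPS6KB1 did not pass the test. EIF4EBP1 (ENSG00000187840, chr8:38030534-38060365, plus strand) encodes 4E-BP1, which binds the cap-binding factor EIF4E and blocks translation until mTORC1 phosphorylates it. It was at 61.2, 60.5 and 62.9 CPM in Con and at 94.2, 72.2 and 91.3 CPM in GTA+5-Aza, without overlap. The level was 39.6% higher (log2 fold change 0.48, SE 0.11, edgeR adjusted p = 0.00369), and the call was kept in all 19 alternative settings. With CPT it was at 67.7, 81.8 and 50.6 CPM in CPT and at 85.6, 82.1 and 86.3 CPM in CPT+GTA+5-Aza. The CPT libraries were spread widely and their highest value came within 1 CPM of the lowest primed one. The level was 26.8% higher there (log2 fold change 0.34, SE 0.11, edgeR adjusted p = 0.0373), and without CPT replicate 3, the lowest, the log2 fold change of EIF4EBP1 was 0.17 with an edgeR adjusted p of 0.249. The call was also lost without CPT replicate 1 or any library of CPT+GTA+5-Aza, and with only the compared groups in the fit (edgeR adjusted p from 0.0616 to 0.109). RPS6KB1 (ENSG00000108443, chr17:59893046-59950574, plus strand), the S6 kinase that phosphorylates ribosomal protein S6, was at 76.5, 73.4 and 69.5 CPM in Con and 69.2, 72.2 and 68.3 CPM in GTA+5-Aza, with log2 fold changes of -0.06 in both comparisons (intervals -0.22 to 0.09).

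Per length, EIF4EBP1 had the highest level of the 10 genes and DEPTOR the lowest. In Con, in CPM per kb of exon, EIF4EBP1 stood at 69.9 ± 1.42 (SD, n = 3), MTOR at 19.3 ± 0.225, AKT1S1 at 14.6 ± 0.771 and RPS6KB1 at 9.50 ± 0.455. MLST8 at 7.94 ± 0.968 and RPTOR at 7.41 ± 0.377 followed, with overlapping libraries. RICTOR at 3.32 ± 0.228, TSC2 at 3.17 ± 0.273 and TSC1 at 2.68 ± 0.313 came next, and the libraries of RICTOR overlapped those of TSC2, which overlapped those of TSC1. DEPTOR stood at 0.140 ± 0.0642. The order depends on the length used, since the exons of several genes are much longer in union than in the main transcript. On the canonical transcript, in CPM per kb, AKT1S1 at 47.3 stood above MTOR at 29.7, and TSC2 at 10.2 stood above TSC1 at 5.49 and RICTOR at 4.68. In the primed groups RPTOR stood at 2.74 ± 0.181 (GTA+5-Aza) and 2.93 ± 0.142 (CPT+GTA+5-Aza) per kb of exon, beside RICTOR at 3.19 ± 0.257 and 2.65 ± 0.250.

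None of the 10 genes, and none of the pathway genes described further on, passed the test with CPT at an adjusted p under 0.05. This held for CPT against Con, for CPT+GTA+5-Aza against GTA+5-Aza and for the interaction of CPT and priming. It also held for all 17123 genes in the same edgeR test with Benjamini-Hochberg adjustment (0% called in each of the 3). At an unadjusted P under 0.05, 733, 464 and 451 genes passed (4.28%, 2.71% and 2.63%). The first of these numbers, for CPT against Con, was 1193 when CPT replicate 2 was left out and 1228 when CPT replicate 3 was left out, with 0 genes called after adjustment. DESeq2 called 4, 0 and 0 genes in these comparisons, none of them among the 10, and the edgeR test with no filter on low counts called 10, 4 and 11. Of the 10 genes, RICTOR in primed cells was the only one at an unadjusted P under 0.05 in these comparisons. Its GTA+5-Aza values of 45.9, 43.7 and 39.1 CPM lay above the CPT+GTA+5-Aza values of 37.1, 31.8 and 38.0 CPM, with a log2 fold change of -0.27 (interval -0.48 to -0.06, edgeR adjusted p = 1.00). Without overlap of the groups stood MTOR in unprimed cells (log2 fold change -0.04) and RICTOR in primed cells, 1 of 10 genes each, beside 8.02% and 9.15% of all genes.

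RPTOR was tested with CPT, since it was not chosen on that contrast, but the libraries of these tests include those whose values chose it. The log2 fold change was -0.02 in unprimed cells, with a 95% interval from -0.20 to 0.16, and 0.10 in primed cells, with an interval from -0.10 to 0.30. The interaction, which is the log2 fold change of a gene with priming in the presence of CPT minus that in its absence, was 0.12 for RPTOR. For this gene it is made of the priming values that chose it. No interval is therefore given, and the lack of a call of RPTOR in the interaction supports nothing. MTOR with CPT had intervals from -0.15 to 0.07 in unprimed and from -0.08 to 0.14 in primed cells, and its interaction was 0.07 (-0.08 to 0.23). The calls of MLST8 in 1 of the priming comparisons and not in the other do not show a difference between them, since the interaction of MLST8 was 0.14 (interval -0.17 to 0.45). For EIF4EBP1 it was -0.14 (-0.47 to 0.19), for TSC2 -0.08 (-0.34 to 0.18) and for RICTOR -0.18 (-0.48 to 0.11).

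The wider pathway was taken from a list of 78 other genes in 8 roles, of which 70 passed the filter on low counts. PRR5L, SESN3, CASTOR1, PIK3R2, PRKAA2, PRKAG3 and DDIT4L had 0 to 77 counts over all 12 libraries, and CASTOR2 had no identifier. In GTA+5-Aza against Con, the test called 5 of the 70 higher and 4 lower, and in CPT+GTA+5-Aza against CPT it called 5 of them in each direction, beside the shares of all genes given above. The median log2 fold change of the 70 genes was 0.03 and -0.00064. By the rule of fold change and unadjusted P, 3 and 2 genes were higher and none was lower, beside 6.82% and 6.93% of all genes called higher and 1.62% and 1.74% called lower by that rule.

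**Figure D3:**
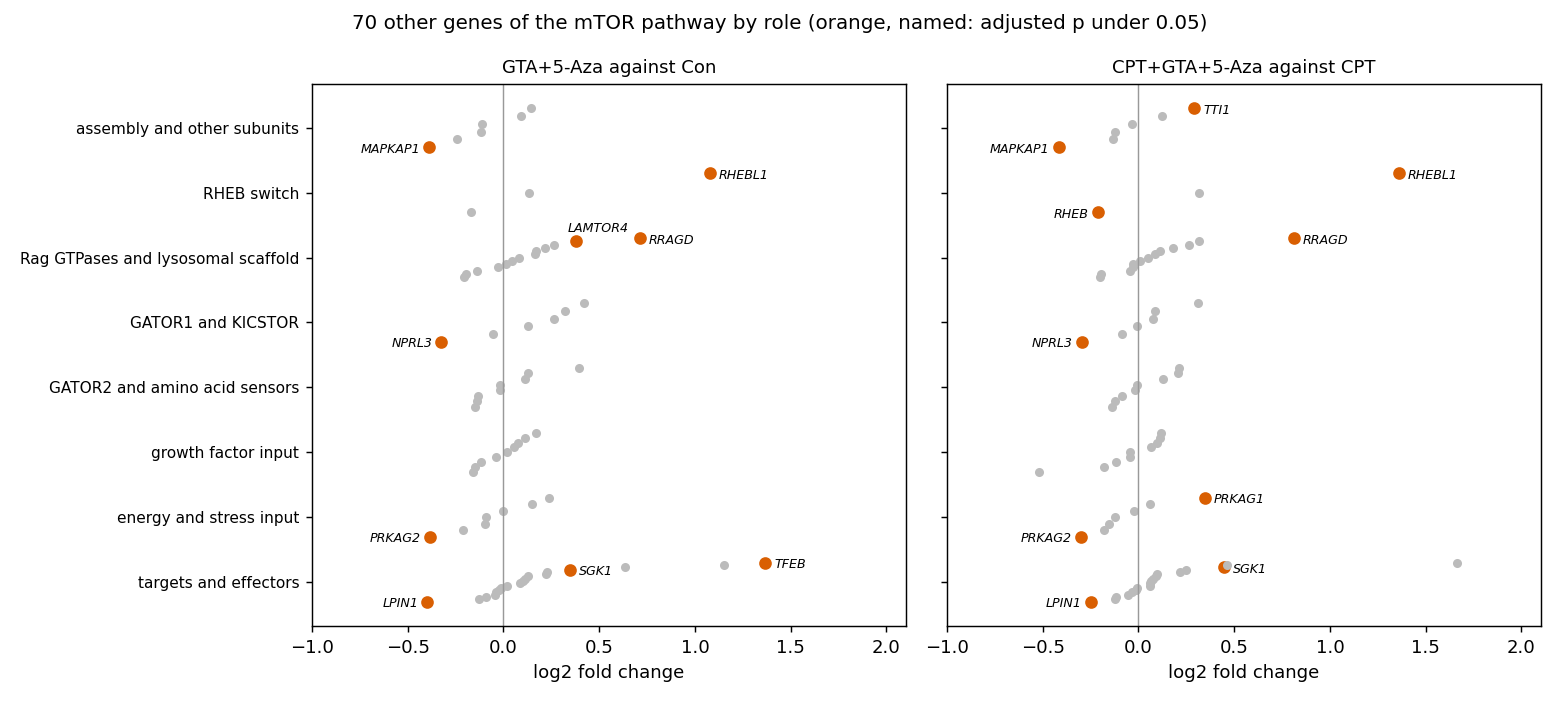
Log2 fold change with priming (x axis) of the 70 tested pathway genes, grouped by role (y axis), without CPT (left) and with CPT (right). Each point is a gene, and those with an edgeR adjusted p under 0.05 are orange and named. RHEBL1, RRAGD and SGK1 lie to the right of 0 and MAPKAP1, NPRL3, PRKAG2 and LPIN1 to the left in both panels, and most genes lie near 0.

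Among subunits and assembly factors, 1 of 6 genes was lower without CPT, and 1 was lower and 1 higher with CPT. MAPKAP1, which encodes the mTORC2 subunit SIN1, was at 131 to 143 CPM in Con and 104 to 107 CPM in GTA+5-Aza, and at 135 to 154 CPM in CPT and 103 to 109 CPM in CPT+GTA+5-Aza. It fell by 23.6% and by 25.1% (log2 fold changes -0.39 and -0.42, edgeR adjusted p = 0.000145 and 6.65e-05), without overlap of the groups. TTI1, a chaperone partner in the assembly of mTOR complexes, passed only with CPT (log2 fold change 0.29, edgeR adjusted p = 0.00885), beside 0.09 without CPT, and the interaction of TTI1 was 0.20 (interval -0.02 to 0.42).

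Of the 3 genes of the RHEB switch, the closest step to mTORC1, 1 was higher without CPT, and 1 was higher and 1 lower with CPT. RHEBL1 was at 1.79, 1.43 and 1.94 CPM in Con, 1.26, 2.46 and 0.928 CPM in CPT, 4.06, 3.91 and 2.94 CPM in GTA+5-Aza and 3.64, 4.88 and 3.55 CPM in CPT+GTA+5-Aza. In each comparison the primed libraries lay above the unprimed ones without overlap, as did 18.1% and 16.4% of all genes. RHEBL1 rose 2.11-fold and 2.57-fold (log2 fold changes 1.08 and 1.36, edgeR adjusted p = 0.0201 and 0.00435) on 17 to 86 counts per library. RHEB itself, at 155 to 182 CPM in Con, had a log2 fold change of -0.17 without CPT (edgeR adjusted p = 0.0761) and fell with CPT (-0.21, edgeR adjusted p = 0.0273). RHEB was the more abundant by far, at 141 to 157 CPM in the primed cells against at most 4.88 CPM of RHEBL1.

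Of the 13 genes of the Rag GTPases and the lysosomal scaffold, 2 were higher without CPT and 1 with CPT, and none was lower. RRAGD, a Rag GTPase that takes part in amino acid signaling to mTORC1, was at 5.94, 5.72 and 6.61 CPM in Con and at 8.39, 10.4 and 11.1 CPM in GTA+5-Aza. It was at 4.45, 7.08 and 5.89 CPM in CPT and at 11.1, 10.4 and 9.18 CPM in CPT+GTA+5-Aza. The groups did not overlap, and RRAGD rose 1.64-fold and 1.76-fold (log2 fold changes 0.71 and 0.81, edgeR adjusted p = 0.00695 and 0.00261). LAMTOR4, a subunit of the Ragulator scaffold, had log2 fold changes of 0.38 (edgeR adjusted p = 0.0215) and 0.32 (0.0562).

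In GATOR1 and KICSTOR, which restrain mTORC1 when amino acids are scarce, 1 of 6 genes was lower and none higher in each comparison. It was NPRL3, a GATOR1 subunit, at 61.8 to 68.4 CPM in Con and 50.4 to 55.3 CPM in GTA+5-Aza, with log2 fold changes of -0.32 and -0.29 (edgeR adjusted p = 0.00385 and 0.00805). None of the 8 genes of GATOR2 and the amino acid sensors passed, and the tested list holds SESN1, SESN2 and SAMTOR.

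Of 9 genes of growth factor input, which include AKT1, AKT2, IRS1 and PIK3CA, none passed in either comparison. Of 7 genes of energy and stress input, the AMPK subunit PRKAG2 was lower in both comparisons (log2 fold changes -0.38 and -0.30, edgeR adjusted p = 0.00204 and 0.0148). The paralog PRKAG1 was higher with CPT (0.35, edgeR adjusted p = 0.0100), beside 0.24 without CPT (0.0800).

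Of the 18 other targets and effectors, 2 were higher and 1 lower without CPT, and 1 was higher and 1 lower with CPT. SGK1, a kinase phosphorylated by mTORC2, was at 226, 207 and 223 CPM in Con against 274, 293 and 265 CPM in GTA+5-Aza, and at 203 to 221 CPM in CPT against 287 to 289 CPM in CPT+GTA+5-Aza. SGK1 was 27.1% and 36.1% higher (log2 fold changes 0.35 and 0.44, edgeR adjusted p = 0.000111 and 4.38e-06). LPIN1, a phosphatidate phosphatase whose nuclear entry mTORC1 controls, had log2 fold changes of -0.40 and -0.25 (edgeR adjusted p = 0.000996 and 0.0340). TFEB, the lysosomal transcription factor that mTORC1 keeps in the cytoplasm, was at 1.05, 2.38 and 0.875 CPM in Con and at 4.22, 3.31 and 3.67 CPM in GTA+5-Aza, and rose 2.58-fold (log2 fold change 1.37, edgeR adjusted p = 0.00941). With CPT it was at 1.37, 1.03 and 1.69 CPM in CPT and 1.74, 1.59 and 2.33 CPM in CPT+GTA+5-Aza, with overlap and a log2 fold change of 0.46 (edgeR adjusted p = 0.465). CPT in primed cells gave TFEB a log2 fold change of -0.98 (interval -1.72 to -0.25, edgeR adjusted p = 1.00), with CPT+GTA+5-Aza and GTA+5-Aza apart. TFEB had 18 to 79 counts per library. In this contrast 1 of the 70 pathway genes was lower without overlap and 1 was higher, beside 9.15% of all genes in either direction. The interaction of TFEB was -0.90 (interval -1.99 to 0.18), so a difference between the comparisons was not shown.

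RPTOR was also set among the genes around it and among genes of its size. It (ENSG00000141564) lies at chr17:80544819-80966371 on the plus strand (GRCh38, GENCODE v44), spans 422 kb, the longest span of the 10 genes, and ends 2.29 Mb from the end of the chromosome. Within 1 Mb on either side lie 63 tested genes, with a median log2 fold change of 0.02 without CPT and -0.06 with CPT. Of the 43 that are protein-coding, 0 were called lower and 3 higher without CPT, and 3 were called lower and 3 higher with CPT. Over all other protein-coding genes tested, 9.41% were lower and 12.3% higher without CPT, and 9.38% and 11.8% with CPT. None of the 43 reached the log2 fold change of RPTOR. AATK (0.81, edgeR adjusted p = 0.0233 without CPT) and NPTX1 (0.73, edgeR adjusted p = 0.0151 with CPT) were the protein-coding neighbours with a fold change above 1.5 and an adjusted p under 0.05, both higher in primed cells. Among the noncoding neighbours, ENSG00000263731 was lower with CPT (-0.72, edgeR adjusted p = 0.0487).

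3 antisense lncRNAs overlap RPTOR. ENSG00000262313, ENSG00000262662 and ENSG00000261924, on the minus strand near the 3′ end of the gene, had log2 fold changes of -1.55, -1.58 and -2.69 without CPT and -1.11, -1.07 and -1.43 with CPT, on 4 to 76 counts per library. ENSG00000262313 was also spread within the unprimed cells, at 2.68, 3.62 and 2.92 CPM in Con and at 0.770, 1.82 and 2.40 CPM in CPT, where the lowest CPT value lay below the highest CPT+GTA+5-Aza value (1.11 CPM). The strand setting of the counting is not given in the sources used here, and without it reads of RPTOR and of these RNAs cannot be told apart where they overlap. ENSG00000261924, at chr17:80966239-80971213, overlaps RPTOR only at its edge, since RPTOR ends at 80966371, and most of it lies beyond that end. These 3 RNAs are given with no test.

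**Figure D4:**
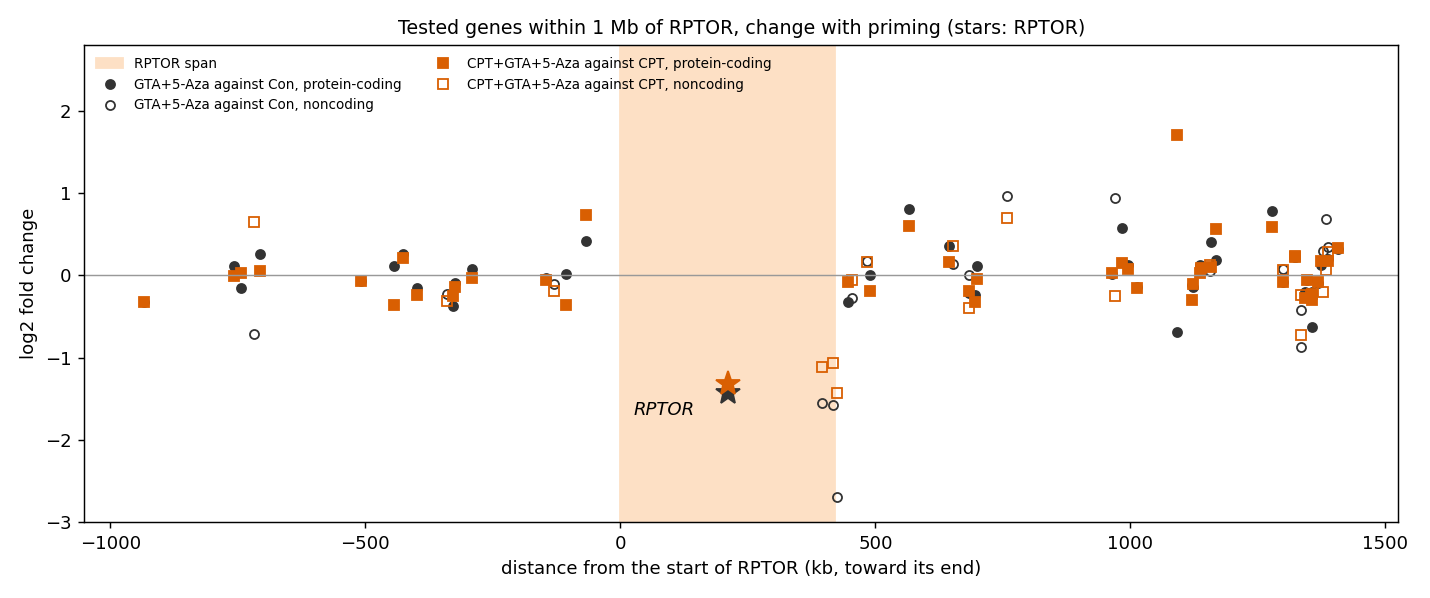
Log2 fold change with priming (y axis) of the tested genes within 1 Mb of RPTOR against distance from the start of RPTOR in kb (x axis), without CPT (dark circles) and with CPT (orange squares). Filled symbols are protein-coding genes, open symbols noncoding genes, stars RPTOR, and the shaded band the RPTOR span. The coding neighbours scatter around 0, and the low values near RPTOR are the 3 antisense lncRNAs.

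The log2 fold changes with priming were lower for long genes than for short genes. Over the 12368 other protein-coding genes tested, the median log2 fold change without CPT was 0.10 for spans under 10 kb (2360 genes), -0.11 for 200 to 400 kb (594 genes) and -0.24 for over 400 kb (220 genes). The share called lower was 4.87%, 19.5% and 25% in these classes. With CPT the medians were 0.10, -0.10 and -0.19. Within 3 Mb of a chromosome end, a distance set here to include RPTOR, lie 1246 other protein-coding genes of any span. Their median was 0.017 without CPT, with 9.63% called lower, beside 0.0097 and 9.39% for the 11122 genes farther away. With CPT, 9.79% and 9.33% were called lower. Of the genes within 3 Mb, 28 others span over 200 kb. The median of these 28 was -0.44 without CPT, with 17 called lower and 0 higher, and -0.37 with CPT, with 15 lower and 0 higher. Among the 786 genes of that span farther from an end, the medians were -0.12 and -0.11, with 154 lower and 48 higher without CPT. Among the 28 genes CDH4 alone was lower than RPTOR without CPT (log2 fold change -2.01, with a mean of 0.445 CPM in Con), and none of the 28 was lower with CPT. Of the other 9 mTOR genes, 2 lie within 3 Mb of an end, MLST8 (2.204 Mb) and TSC2 (2.05 Mb), and they span 5.21 and 41.5 kb. The classes were chosen with the values known and have no test.

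**Figure D5:**
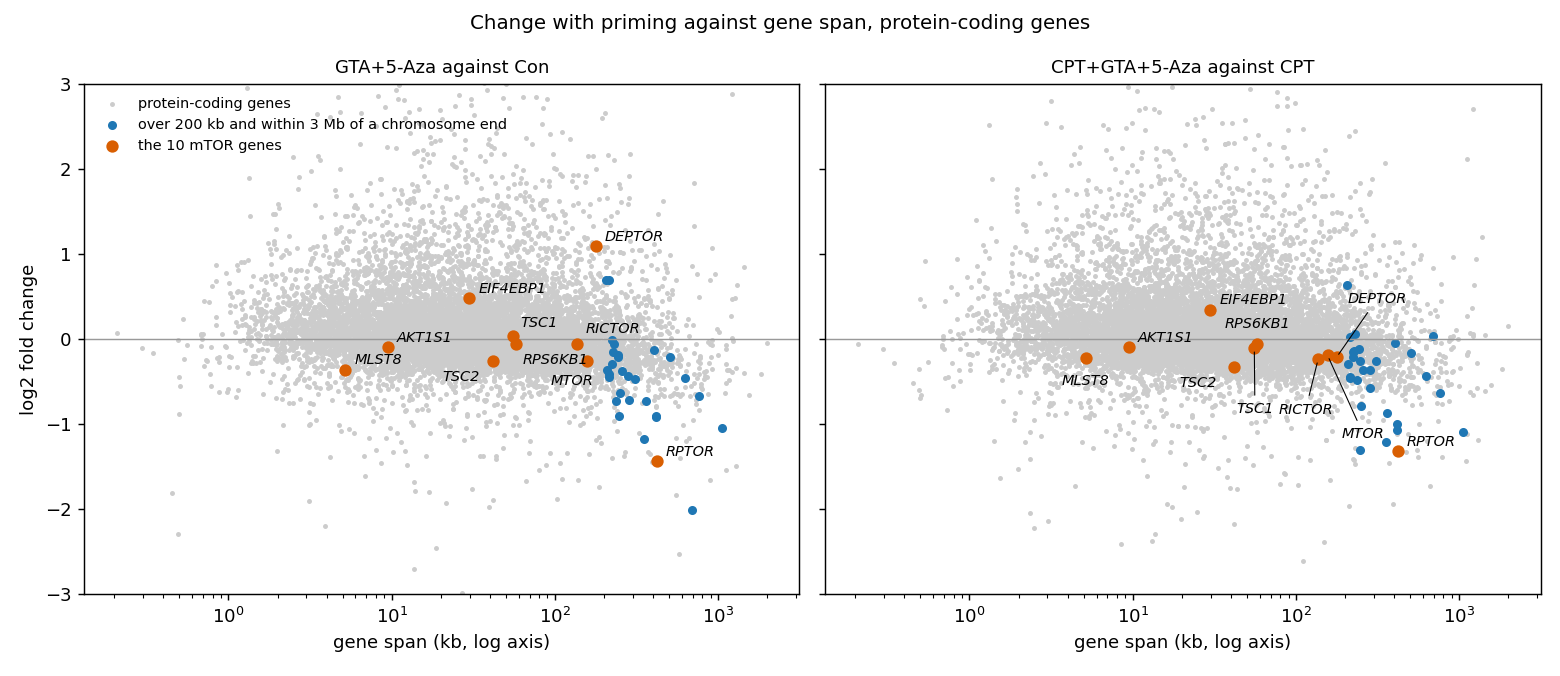
Log2 fold change with priming (y axis) against gene span in kb (x axis, log scale) for protein-coding genes, without CPT (left) and with CPT (right). Blue points are genes over 200 kb within 3 Mb of a chromosome end, and orange points are the 10 mTOR genes, and 65 and 73 genes lie beyond the axis limits of -3 and 3. RPTOR lies at 422 kb, below all blue points but CDH4 in the left panel, and the other mTOR genes span under 200 kb.

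The genes most like RPTOR were found by the root mean square difference of log2 CPM, centred on the mean of the 12 libraries. HDAC4, a class IIa histone deacetylase, was closest at 0.16, followed by PRDM16, a zinc finger transcription factor, at 0.20, AGAP1 at 0.21, INPP5A, an inositol phosphatase, at 0.21, and NDST3, a heparan sulfate modifying enzyme, at 0.23. The median over all tested genes was 0.74, and over the other 9 mTOR genes 0.65. The 12 libraries fall into primed and unprimed groups, and the measure carries the RPTOR values that chose the gene, so no p is given. The log2 fold changes without CPT were -1.18 for HDAC4, -1.33 for PRDM16, -1.20 for AGAP1, -0.91 for INPP5A and -1.40 for NDST3. All 5 genes span over 200 kb, from 225 kb (NDST3) to 638 kb (AGAP1), and HDAC4 and INPP5A lie within 3 Mb of a chromosome end. Of the next 5 genes in this order, POLR1F and LANCL2 span only 13.6 and 68.4 kb and lie farther than 3 Mb from an end.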

How the data were processed

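RNA-seq of 12 MiaPaca2 libraries was used, with groups and replicate numbers from the labels. Per the study's methods and processing notes, paired-end reads of 150 bp were trimmed (Trim Galore), aligned by HISAT2 2.2.1 to GRCh38 and assigned to genes by HTSeq. The deposited values are the authors' raw counts for each Ensembl identifier, not normalized. The strand setting and the annotation release are not given in the sources used here, so counts of overlapping genes are uncertain. Symbols and coordinates came from GENCODE v44, where 52181 of the 63677 identifiers were found, with 99.047% of all counts.

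The main tests used edgeR 4.0.16 in R 4.3.3 (filterByExpr on the 4 groups, TMM, glmQLFit and glmQLFTest, all 12 libraries in 1 fit without a block, Benjamini-Hochberg over 17123 genes), with DESeq2 1.42.0 as an alternative. Genes were called at an adjusted p under 0.05, and the study's rule (fold change above 1.5, unadjusted P under 0.05) is given beside it. The steps were tested on simulated data. Intervals are 95% intervals of the fit. Replicates differed beyond counting noise in all 12 pairs within groups.

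The 10 genes, the pathway list, the classes by span and the tests were chosen with earlier results of these data known. All 10 genes are named, with pathway genes that passed the test in a priming comparison, the 5 genes most like RPTOR, and its neighbours within 1 Mb that had an adjusted p under 0.05 and a fold change above 1.5. CDH4, POLR1F, LANCL2 and the antisense lncRNAs were named after their values were seen. 2 genes of the pathway list drawn up first are not reported here, for a reason other than their values, and its counts are over the remaining genes. Alternatives were other scalings, DESeq2, no or a stricter filter (CPM of at least 1 in 6 libraries), only the groups compared, the replicate number as a block, and leaving out each library.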

Additional observations from a re-analysis of the deposited data

How the results depend on the processing

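None of the 19 alternative settings reversed a value of the 10 genes that passed the test, and for the pathway genes only the numbers of calls were recomputed. RPTOR ranged from -1.49 to -1.39 without CPT and from -1.40 to -1.22 with CPT (log2 fold change). When each library was left out in turn, the genes called among the other 9 ranged from 2 to 4 without CPT and from 1 to 4 with CPT, and the pathway genes called from 7 to 12 and from 7 to 14. Both CPT comparisons and the interaction kept 0 calls among the 10 genes and the 70 pathway genes. MTOR and EIF4EBP1 without CPT and TSC2 with CPT were called in all 19 settings, MTOR with CPT in 17, MLST8 without CPT in 15, EIF4EBP1 with CPT in 13 and TSC2 without CPT in 9. The causes were not tested. Values that did not pass changed sign in 42 cases. With priming in the absence of CPT, leaving out a library gave log2 fold changes from -0.035 to 0.13 for TSC1 and from -0.11 to 0.0050 for RICTOR. With priming in the presence of CPT, leaving out a library gave log2 fold changes from -0.82 to 0.17 for DEPTOR. With CPT in unprimed cells, leaving out a library gave log2 fold changes from -0.046 to 0.028 for RPS6KB1, from -0.12 to 0.060 for RPTOR, from -0.078 to 0.013 for AKT1S1, from -0.032 to 0.086 for TSC2 and from -0.055 to 0.28 for EIF4EBP1. With CPT in primed cells, leaving out a library gave log2 fold changes from -0.012 to 0.098 for MLST8, from -0.13 to 0.050 for EIF4EBP1, from -0.039 to 0.036 for RPS6KB1, from -0.10 to 0.031 for AKT1S1, from -0.090 to 0.039 for TSC1 and from -0.12 to 0.061 for TSC2. For the interaction of CPT and priming, leaving out a library gave log2 fold changes from -0.038 to 0.046 for RPS6KB1, from -0.062 to 0.073 for AKT1S1, from -0.30 to 0.035 for EIF4EBP1 and from -0.15 to 0.028 for TSC2. The interaction of RPS6KB1 was also -0.00131 with all genes kept in the test and -0.00118 with the replicate block, beside 8.83e-05. Replicate numbers did not pair the samples (correlations of same-numbered deviations from -0.28 to 0.42 over 4 comparisons). With the replicate block, 3 of the 9 genes were called in each comparison, and TSC2 without CPT had an edgeR adjusted p of 0.0616. Library-size scaling raised the share of higher genes among all calls from 56.9% to 68.9% without CPT and from 56.4% to 69.0% with CPT. Depth limits DEPTOR, at 3 to 17 counts per library.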
